A study of Saccharomyces cerevisiae with 12 samples.

Results

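The 10 genes described here act when haploid yeast cells of opposite mating type sense each other and fuse. They are STE12, FUS3, FAR1, SST2, FUS1, PRM1, PRM2, FIG1, AGA1 and PRR2. They were chosen by name, through the gene symbols of the array platform, with earlier results of these data known. Each has 1 probe set on the array, none of them shared with another gene by its name, and all 10 were among the 5449 yeast genes tested. Levels come from 12 Affymetrix arrays of cultures in minimal galactose medium, held at pH 5.0 in fermenters and sampled in mid exponential growth. There were 6 groups of 2 arrays. E62A, E62B and E62C are mutants evolved over many generations in galactose medium. SO16 and PGM2 were engineered, SO16 by deleting GAL80, MIG1 and LAP3 and PGM2 by overexpressing that gene, as published for these strains. REF is their parent. The labels give all 12 samples the background CEN.PK113-7D, known as a haploid laboratory strain of mating type a. No partner and no added pheromone is described in any culture.

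In such cells pheromone from a partner binds a surface receptor and frees the G protein subunits Ste4 and Ste18. A kinase cascade held by the scaffold Ste5 then activates the mitogen-activated protein kinases Fus3 and Kss1. These release the transcription factor Ste12, which binds the promoters of mating genes and raises genes for arrest, agglutination and fusion. Without a partner the pathway is known to have a low basal activity. The activity of the pathway in these cultures was not measured.

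Levels are log2 values of the robust multi-array average (RMA), so that 1 unit is a doubling. Differences are given ± the standard error (SE) of a limma fit to all 12 arrays, with 2 arrays a group, and p values are adjusted by Benjamini-Hochberg over all 5449 genes. A gene is said to rise or fall where its adjusted p was under 0.05. Whether a group's 2 arrays represent separate cultures is not in the labels, and p values therefore measure a spread between arrays that may be technical. In bulk samples, fewer cells expressing a gene and less RNA per cell cannot be told apart.

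The labels were checked first. GAL80 had levels of 6.29 and 6.04 on the arrays labelled SO16, against 11.32 and 11.43 on the REF arrays, and MIG1 and LAP3 were below background there. PGM2 went against its label: the arrays labelled PGM2 read 10.49 and 10.87, against 12.14 and 12.11 on REF, while those labelled E62C read 13.43 and 13.19. Directions drawn from the labels PGM2 and E62C carry this conflict, and groups are therefore named as arrays with a label. No gene read here checks the labels E62A, E62B and E62C, and against REF none of the 5449 genes passed on the arrays labelled E62B, so values under that label are not taken as those of an evolved mutant without change. The replicate 2 arrays of SO16 and E62C had weak hybridisation controls, with means of 8.90 and 8.91, against 10.12 to 11.65 on the other 10. The same 2 arrays had the highest means of ribosomal RNA probe sets, 10.40 and 10.70, against 8.26 to 9.40 on the other 10. The part of these differences in the results was not tested beyond leaving both arrays out. Background was set at 6.002 from fission yeast probe sets on the same array, and all 10 genes lay above it on all 12 arrays.

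The 10 genes were lowest, in the order of group means, on the arrays labelled E62A in all 10 cases; over all genes that share was 26.4%. Each differed among the 6 groups by the moderated F test of limma, with adjusted p from 1.65e-08 for FUS1 to 0.0108 for STE12, where 27.2% of all genes did. Against REF, 9 of the 10 fell on the arrays labelled E62A and none rose (12.5% of all genes passed, and 6.97% fell). Of the same 10 genes, 5 fell and none rose on the arrays labelled E62C (9.8% passed, 4.96% fell). Changes on the arrays labelled SO16 were mixed, 3 lower and 2 higher (8.79% passed, 5.1% fell and 3.69% rose). They were mixed as well on those labelled PGM2, with 2 lower and 3 higher (13.6% passed, 6.53% fell and 7.03% rose). None of the 10 passed on the arrays labelled E62B, as for all genes (0%). These comparisons share the REF arrays and are not independent of each other. Because the 10 genes were chosen with earlier results known, the contrast with the shares over all genes may be enlarged by that choice. It is a description and not an independent test.

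**Figure D1:**
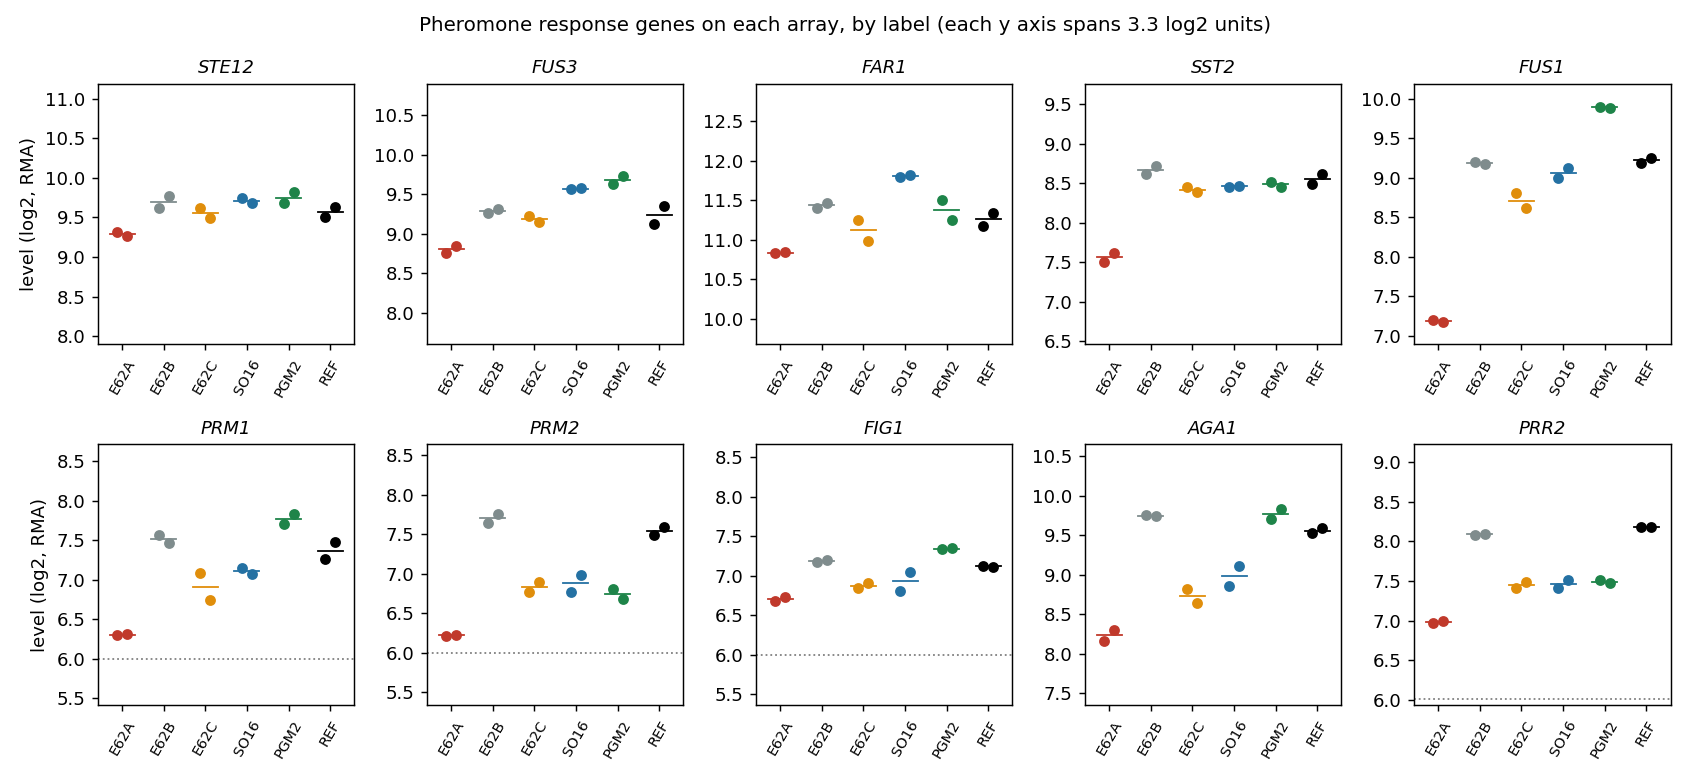
Level of each gene on each array (y axis, log2 of the robust multi-array average, each axis spanning the same range) by label (x axis). Points are arrays, short lines the means of 2 arrays, and the dotted line, where in range, the background of 6.002. FUS1 sits at 7.20 and 7.18 on the arrays labelled E62A and at 9.90 and 9.88 on those labelled PGM2, against 9.19 and 9.25 on REF.

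Among the signalling members, STE12, the transcription factor at the end of the cascade, had the smallest span. Its level was 9.32 and 9.27 on the arrays labelled E62A, 9.62 and 9.78 on E62B, 9.61 and 9.50 on E62C, 9.75 and 9.68 on SO16, and 9.68 and 9.82 on PGM2, against 9.51 and 9.63 on REF. The E62A arrays were below all others, while the arrays of the other 5 groups lay between 9.50 and 9.82. STE12 did not pass against REF on the arrays labelled E62A, at -0.28 ± 0.08 (adjusted p = 0.0512). It sits at the threshold: it passed after each array was centred on its median (adjusted p = 0.0493) and without any one SO16 (0.0425) or E62C array (0.0449) or SO16 replicate 2 and E62C replicate 2 together (0.0254). Against the arrays labelled PGM2 and SO16, STE12 was lower on those labelled E62A, with differences of -0.46 ± 0.08 (adjusted p = 0.00212) and -0.42 ± 0.08 (0.00446).

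FUS3, the mitogen-activated protein kinase that phosphorylates the Ste12 inhibitors and Far1, varied more. It had levels of 8.76 and 8.84 on the arrays labelled E62A, 9.27 and 9.31 on E62B, 9.23 and 9.14 on E62C, 9.56 and 9.58 on SO16, and 9.62 and 9.74 on PGM2, against 9.12 and 9.35 on REF. Thus E62A lay below and SO16 and PGM2 above the other groups, without overlap. FUS3 fell by 0.43 ± 0.08 on the arrays labelled E62A (adjusted p = 0.00535) and rose by 0.45 ± 0.08 on those labelled PGM2 (0.00399) and by 0.34 ± 0.08 on those labelled SO16 (0.027). For E62A, omitting REF replicate 2 (-0.32, adjusted p = 0.0503) or E62A replicate 1 (0.0665) removed the call. For SO16, omitting REF replicate 1 (0.22, adjusted p = 0.246), SO16 replicate 1 (0.06) or SO16 replicate 2 (0.0691) removed it. The direct difference between the arrays labelled SO16 and PGM2 was -0.11 ± 0.08, with a 95% interval of -0.29 to 0.07.

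FAR1, which inhibits the cyclin-dependent kinase in G1 and guides polarised growth toward the partner, was highest on the arrays labelled SO16. Its level was 10.83 and 10.84 on the arrays labelled E62A, 11.41 and 11.47 on E62B, 11.25 and 10.99 on E62C, 11.80 and 11.82 on SO16, and 11.51 and 11.25 on PGM2, against 11.18 and 11.34 on REF. FAR1 rose on the arrays labelled SO16, by 0.55 ± 0.10 (adjusted p = 0.00596), and fell by 0.42 ± 0.10 on those labelled E62A (0.0205). Without REF replicate 1 the SO16 call ended (0.47, adjusted p = 0.0758). For E62A, omitting REF replicate 2 (-0.34, adjusted p = 0.148) or either E62A array (0.123 and 0.113) did the same. FAR1 on the arrays labelled SO16 was also above those labelled E62C (the log2 difference E62C minus SO16 was -0.69 ± 0.10, adjusted p = 0.00251).

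SST2, the GTPase-activating protein that switches off the pheromone G protein and is itself induced by pheromone, was low on 1 group alone in the order of levels. It had levels of 7.51 and 7.62 on the arrays labelled E62A, 8.61 and 8.71 on E62B, 8.45 and 8.39 on E62C, 8.44 and 8.47 on SO16, and 8.52 and 8.45 on PGM2, against 8.49 and 8.62 on REF. SST2 was 1.99-fold lower on the arrays labelled E62A (-0.99 ± 0.07, adjusted p = 5.95e-06). Its differences from REF were -0.14 ± 0.07 for E62C, -0.10 ± 0.07 for SO16 and -0.07 ± 0.07 for PGM2, and none passed. The step up from E62A to its neighbour in the order, E62C, was 0.86 (adjusted p = 2.15e-05), and no later step passed.

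FUS1, a membrane protein of the mating projection needed for fusion and a classical reporter of Ste12 activity, had the widest span of the 10 genes. Its level was 7.20 and 7.18 on the arrays labelled E62A, 9.20 and 9.17 on E62B, 8.80 and 8.61 on E62C, 8.996 and 9.13 on SO16, and 9.90 and 9.88 on PGM2, against 9.19 and 9.25 on REF. The group means spanned 2.70, while the widest gap between replicates was 0.19, on the E62C arrays. FUS1 was 4.08-fold lower on the arrays labelled E62A (-2.03 ± 0.08, adjusted p = 1.34e-07). It fell by 0.51 ± 0.08 on those labelled E62C (adjusted p = 0.00135). With the label PGM2 it rose by 0.67 ± 0.08, or 1.59-fold (adjusted p = 1.23e-04). With the label SO16 it differed by -0.16 ± 0.08 and did not pass (adjusted p = 0.272), though it did without SO16 replicate 2 and E62C replicate 2 together (-0.22, adjusted p = 0.04). Between the extremes, the arrays labelled E62A were 6.5-fold below those labelled PGM2 (-2.70 ± 0.08, adjusted p = 3.03e-09).

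PRM1, a membrane protein that promotes merging of the 2 plasma membranes, had the same order of groups at its ends. It had levels of 6.30 and 6.31 on the arrays labelled E62A, 7.57 and 7.47 on E62B, 7.09 and 6.74 on E62C, 7.16 and 7.07 on SO16, and 7.70 and 7.83 on PGM2, against 7.26 and 7.48 on REF. PRM1 fell by 1.06 ± 0.11 on the arrays labelled E62A (adjusted p = 8.96e-05). There it was close to the background of 6.002, where RMA compresses differences, so the fall may be understated. PRM1 fell by 0.45 ± 0.11 on the arrays labelled E62C (adjusted p = 0.0261) and rose by 0.40 ± 0.11 on those labelled PGM2 (0.038). Both calls were fragile. The E62C call ended without E62C replicate 2 (-0.28, adjusted p = 0.151) or REF replicate 2 (-0.34, 0.162), or without SO16 and E62C replicate 2 together (0.0885), and the PGM2 call without any one of REF replicate 1 (0.28, 0.266), PGM2 replicate 1 (0.0918), PGM2 replicate 2 (0.185), or an E62A (0.0629) or E62B array (0.0596).

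FIG1, a membrane protein for calcium influx and fusion during mating, moved least among the fusion genes. Its level was 6.68 and 6.74 on the arrays labelled E62A, 7.17 and 7.20 on E62B, 6.84 and 6.91 on E62C, 6.81 and 7.05 on SO16, and 7.33 and 7.35 on PGM2, against 7.13 and 7.11 on REF. The fall of 0.41 ± 0.08 on the arrays labelled E62A passed (adjusted p = 0.00535), but not without E62A replicate 1 (-0.39, adjusted p = 0.0641). The differences were -0.25 ± 0.08 for E62C (adjusted p = 0.0788), -0.19 ± 0.08 for SO16 (0.194) and 0.22 ± 0.08 for PGM2 (0.0962). Those for E62C and PGM2 passed without SO16 replicate 1 or 2 (0.0182 and 0.0231) and that for SO16 without SO16 replicate 2 (-0.31, 0.0187). Without SO16 replicate 2 and E62C replicate 2 together all 3 passed (0.0162 for E62C, 0.00923 for SO16 and 0.0123 for PGM2). E62C and PGM2 also passed when arrays were centred on their medians (0.0178 and 0.0436).

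AGA1, the anchor subunit of the a-agglutinin through which cells of both types stick together, fell on 3 groups. It had levels of 8.17 and 8.30 on the arrays labelled E62A, 9.75 and 9.74 on E62B, 8.82 and 8.64 on E62C, 8.86 and 9.11 on SO16, and 9.71 and 9.83 on PGM2, against 9.52 and 9.60 on REF. The groups formed a low set (E62A, then E62C and SO16) and a high set (E62B, PGM2 and REF) that did not overlap. Differences between replicates 1 and 2 of a group also correlated over genes within these 2 sets, with r of 0.18 to 0.54 among E62A, E62C and SO16 and 0.47 to 0.53 among E62B, PGM2 and REF, against -0.35 to 0.098 across them. FUS1, PRM1 and FIG1 split along the same line, also without overlap. REF lies in the high set, so the comparisons of E62A, E62C and SO16 with REF run across the 2 sets for every gene. The labels name no batch, and the part of this grouping in the results was not tested. The changes of AGA1 were -1.33 ± 0.10 on the arrays labelled E62A (adjusted p = 5.95e-06), -0.83 ± 0.10 on E62C (2.24e-04) and -0.58 ± 0.10 on SO16 (0.00291). For PGM2, AGA1 differed by 0.21 ± 0.10 and did not pass (adjusted p = 0.202), except without SO16 replicate 2 and E62C replicate 2 together (0.0444).

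The other pair, PRM2 and PRR2, followed another order. PRM2, a pheromone-regulated membrane protein, had levels of 6.22 and 6.22 on the arrays labelled E62A, 7.65 and 7.76 on E62B, 6.77 and 6.89 on E62C, 6.77 and 6.99 on SO16, and 6.81 and 6.69 on PGM2, against 7.49 and 7.59 on REF. PRR2, a protein kinase linked to the pheromone response, had levels of 6.97 and 7.00 on the arrays labelled E62A, 8.08 and 8.10 on E62B, 7.41 and 7.48 on E62C, 7.42 and 7.51 on SO16, and 7.51 and 7.48 on PGM2, against 8.18 and 8.19 on REF. Both genes were lowest on E62A, intermediate on E62C, SO16 and PGM2, and high on E62B and REF, with no overlap between these 3 levels.

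PRM2 fell by 1.32 ± 0.09 on the arrays labelled E62A (adjusted p = 3.60e-06), where it was close to background and its fall may be understated. It fell by 0.71 ± 0.09 on the arrays labelled E62C, 0.66 ± 0.09 on SO16 and 0.79 ± 0.09 on PGM2, with adjusted p from 1.07e-04 to 6.45e-04. PRR2 fell by 1.20 ± 0.06, 0.74 ± 0.06, 0.72 ± 0.06 and 0.69 ± 0.06 in the same order of labels, with adjusted p from 9.67e-07 to 2.85e-05. These 8 calls held in all 24 alternatives that were tried. Between the labels E62C, SO16 and PGM2 neither gene passed in any pair. The 95% interval of the largest such difference was -0.06 to 0.33 for PRM2 (SO16 minus PGM2) and -0.19 to 0.09 for PRR2 (E62C minus PGM2).

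The arrays labelled PGM2 therefore carried both directions at once: FUS1, PRM1 and FUS3 rose while PRM2 and PRR2 fell. The arrays labelled SO16 did so as well, with FAR1 and FUS3 higher and PRR2, PRM2 and AGA1 lower. For E62A and E62C every call of the 10 genes was downward.

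**Figure D2:**
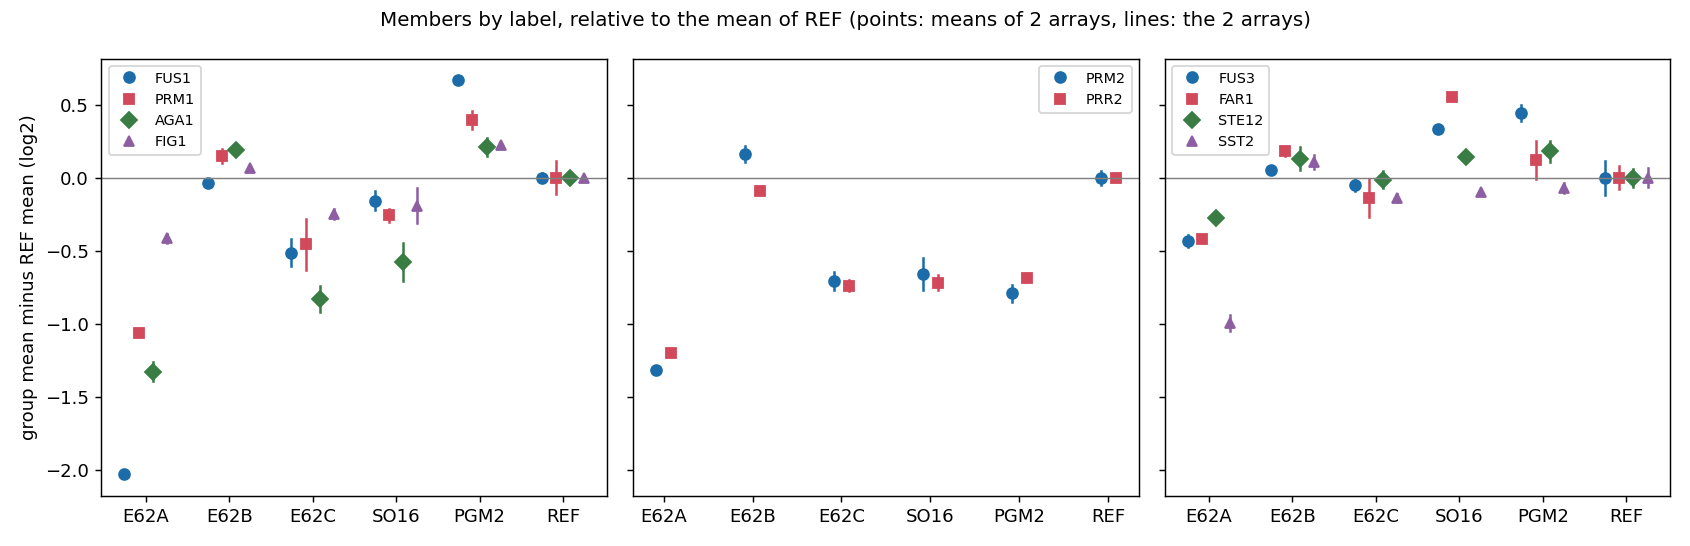
Mean level of each gene minus its REF mean (y axis, log2) by label (x axis); points are means of 2 arrays and vertical lines join the 2 arrays. PRM2 and PRR2 (middle) were below REF by 0.66 to 0.79 on the labels E62C, SO16 and PGM2, while FUS1 (left) was 0.67 above REF on those labelled PGM2; the 3 panels were arranged after the values were seen.

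As a description over the 12 arrays, which share platform and normalization and fall into labelled groups, PRM2 and PRR2 had a Pearson r of 0.98, PRM1 and AGA1 0.96, and FUS1 and PRM1 0.95. The lowest r was that of FUS3 and PRM2, at 0.27. Over the 10 arrays other than those labelled E62A it was -0.52, and PRM2 and PRR2 still had 0.96.

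Set directly against the other modified groups, the arrays labelled E62A were lower in 10 of 10 genes than those labelled E62B (7.3% of all genes were lower) and in 10 of 10 than those labelled PGM2 (12.1%). They were lower in 9 of 10 than those labelled SO16 (9.49%), all but FIG1, and in 8 of 10 than those labelled E62C (9.97%), all but FIG1 and FAR1. The STE12 difference from E62C was at the threshold (adjusted p = 0.0496) and was lost in 17 of the 24 alternatives, with 0.229 without E62A replicate 2. That from E62B (0.0076) was lost without E62B replicate 2 (0.0964) or E62A replicate 2 (0.0775). The FAR1 difference from E62C passed without E62C replicate 2 (0.034, or 0.0202 without SO16 replicate 2 as well), and that of FIG1 from SO16 without SO16 replicate 1 (0.00714). The E62C differences of AGA1 and FUS3 were lost without E62A replicate 1 (0.0658 and 0.0947). No gene of the 10 was higher on the arrays labelled E62A in these 4 comparisons.

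Between the engineered labels, the arrays labelled SO16 were lower than those labelled PGM2 in FUS1 (-0.83 ± 0.08), AGA1 (-0.79 ± 0.10), PRM1 (-0.65 ± 0.11) and FIG1 (-0.41 ± 0.08), and higher in FAR1 (0.43 ± 0.10), against 3.4% of all genes called. The FAR1 call (adjusted p = 0.0469) was lost in 12 of 24 alternatives, up to an adjusted p of 0.221 without PGM2 replicate 2. That of FIG1 (0.0153) ended in 5, with 0.189 when only these 4 arrays were fitted, and that of PRM1 (0.00707) ended without PGM2 replicate 2 (0.0687). The arrays labelled E62C were lower than those labelled PGM2 in 5 genes, FUS1 (-1.18 ± 0.08), AGA1 (-1.04 ± 0.10), PRM1, FUS3 and FIG1, where 4.97% of all genes were lower. They were lower than those labelled SO16 in FAR1, FUS3 and FUS1 (1.91% of all genes were lower). Of these 3 calls, FUS3 (adjusted p = 0.0287) and FUS1 (0.0281) each ended in 10 of the 24 alternatives. Both were lost without any one E62A or E62B array or E62C replicate 2, FUS1 without SO16 replicate 2 and FUS3 without SO16 replicate 1, at adjusted p of 0.0552 to 0.129. Without SO16 replicate 2 and E62C replicate 2 together, FUS1 (0.131) and FUS3 (0.0941) did not pass.

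All 10 differences from REF were small on the arrays labelled E62B, from -0.09 ± 0.06 for PRR2 to 0.19 ± 0.10 for AGA1, and their 95% intervals lay within -0.23 and 0.41. None of the 10 had an unadjusted p under 0.05, as 1.78% of all genes did, and none passed limma in any of the 24 alternatives. The arrays of the 2 groups did not overlap for 5 of the 10 genes, which is read against 30.5% of all genes.

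Against the other evolved and engineered labels, the arrays labelled E62B were higher than those labelled E62C in FUS1, PRM1, PRM2, AGA1, FIG1 and PRR2 (6 of 10, where 12.1% of all genes passed). They were higher than those labelled SO16 in PRM1 (0.41 ± 0.11), PRM2 (0.82 ± 0.09), AGA1 (0.76 ± 0.10) and PRR2 (0.62 ± 0.06) and lower in FAR1 (-0.37 ± 0.10), where 10.8% passed. Compared with PGM2, PRM2 (0.96 ± 0.09) and PRR2 (0.60 ± 0.06) were higher and FUS1 (-0.71 ± 0.08) and FUS3 (-0.39 ± 0.08) lower on the E62B arrays, where 16.9% passed. Without SO16 replicate 2 and E62C replicate 2 together, FIG1 also passed against SO16 (0.38, adjusted p = 0.00288) and PRM1 and FIG1 against PGM2 (-0.25, 0.0436 and -0.16, 0.0472). Of these calls, FIG1 against E62C ended in 7 of the 24 alternatives and FAR1 against SO16 in 8, among them the omission of any one E62A or E62B array. PRM1 against SO16 ended in 12, among them any one E62A, E62B, PGM2 or SO16 array. PRM1 against E62C ended without E62B replicate 1 (adjusted p = 0.0576), and FUS3 against PGM2 without E62B replicate 1 (0.0676) or PGM2 replicate 2 (0.0583).

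**Figure D3:**
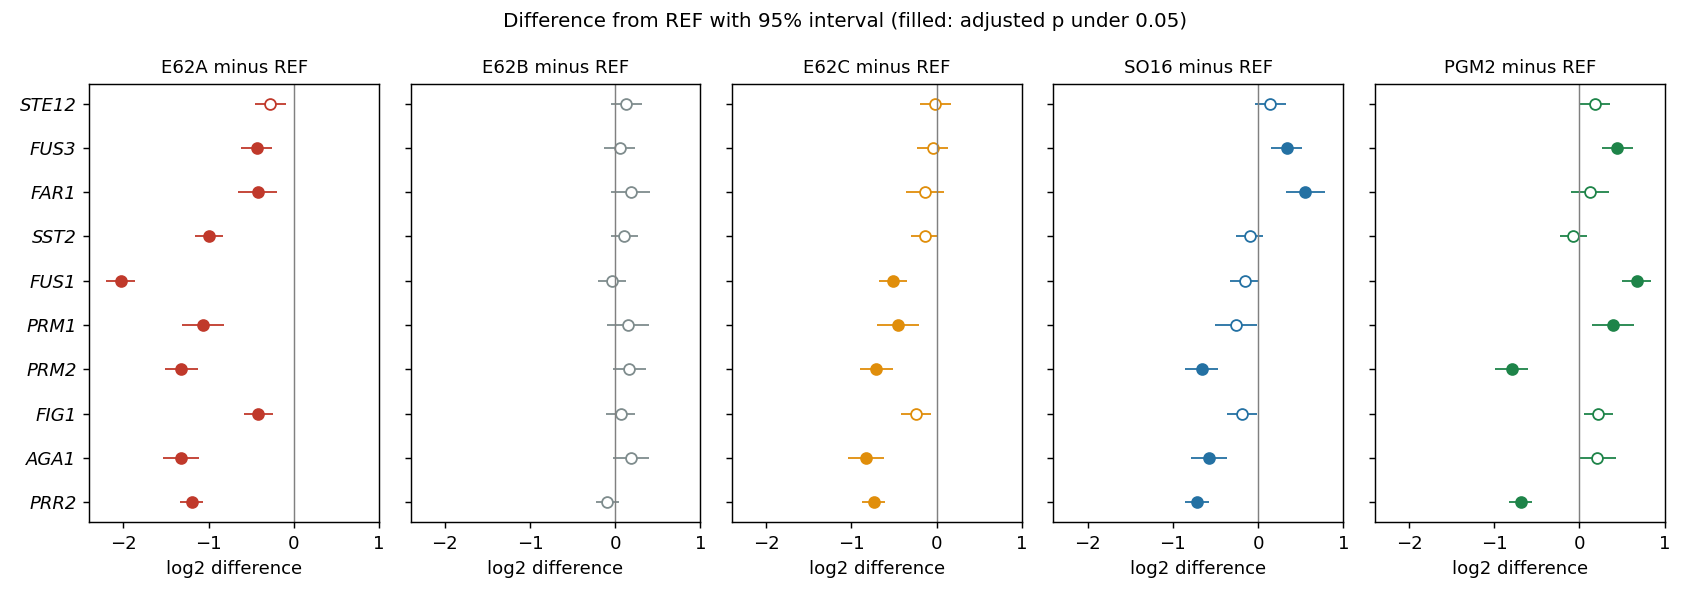
Difference of each of the 5 labels from REF (x axis, log2) for the 10 genes (y axis), with the 95% interval of the limma fit; filled points passed an adjusted p under 0.05. On E62A 9 points are filled, from FUS1 at -2.03 to FIG1 at -0.41; on E62B none is.

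Other genes of the pathway were read from lists by role, some of which share genes. Of the 5 receptor and G protein genes, 4 fell on the arrays labelled E62A, where 6.97% of all genes fell. STE3, the receptor for a-factor, fell by 1.24 ± 0.14 and STE2, the receptor for alpha-factor, by 0.53 ± 0.08. STE4 fell by 0.47 ± 0.09 and GPA1 by 0.30 ± 0.07. The median of the list was -0.47, against 0.0035 over all genes, and -1.03 for the 10 mating genes above. STE4 was no longer called when REF replicate 2 (adjusted p = 0.0543) was left out, or E62A replicate 1 (0.0761), nor was GPA1 without any one of the 4 arrays (0.0755 to 0.182). Of the 10 scaffold, kinase and polarity genes between them and Ste12, among them STE5, STE11, STE7 and KSS1, none passed on these arrays. Their differences lay between -0.11, for CDC24, the exchange factor of Cdc42, and 0.10, for STE50. Among other transcription regulators 2 of 5 fell, KAR4, a partner of Ste12, by 0.50 ± 0.10 and TEC1 by 0.31 ± 0.08. Both ended without REF replicate 2 (adjusted p = 0.0634 and 0.193) or E62A replicate 1 (0.0676 and 0.164), and TEC1 without E62A replicate 2 (0.131).

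On the arrays labelled E62A 6.97% of all genes fell. Another list held 24 genes taken as induced by pheromone, which was not measured here. It includes BNI1, SPA2, PEA2 and KEL1, which act in cell polarity or shape. Of the 24, 11 fell on these arrays and none rose, with a median of -0.29. That count was 6 without E62A replicate 1, where KAR4, PRM6, PRM7, PRM9 and SCW10 were lost, and 7 without E62A replicate 2 or REF replicate 2. PRM5 fell by 1.63 ± 0.10, AFR1, which shapes the mating projection, by 0.97 ± 0.08, and FUS2, needed for fusion, by 0.94 ± 0.07. FUS2 and AFR1 also fell on the arrays labelled E62C, by 0.30 ± 0.07 and 0.37 ± 0.08, where PRM5 rose by 0.51 ± 0.10. Thus 2 of 24 fell and 1 rose, where 4.96% of all genes fell and 264 of 5449 rose. Those counts are not read as a result about the list. These 3 calls were fragile: FUS2 ended without REF replicate 2 (adjusted p = 0.15) or E62C replicate 1 (0.104), AFR1 without REF replicate 1 (0.0717), REF replicate 2 (0.0972) or E62C replicate 1 (0.0797), and PRM5 without REF replicate 1 (0.0725). None of the 24 genes passed on the arrays labelled E62B. PRM5 differed most there, at -0.69 ± 0.10 (adjusted p = 0.111), and passed in 3 of the 24 alternatives. Among these were array weights (adjusted p = 0.0133) and the fit of only the arrays compared (0.00252). The other left out SO16 replicate 2 and E62C replicate 2 together.

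In the same list all calls were upward under the engineered labels. For PGM2, 8 of 24 rose and none fell (median 0.17), where 7.03% of all genes rose. They were led by PRM5 at 2.39 ± 0.10, PRM4 at 1.11 ± 0.09 and PRM10 at 1.07 ± 0.11. Among the 8 were PRM8 (0.30 ± 0.08) and AFR1 (0.35 ± 0.08), whose calls ended in 6 and 4 of the 24 alternatives. For SO16, 6 rose and none fell (median -0.02), where 3.69% of all genes rose. The largest rises were those of PRM5 at 1.72 ± 0.10, PRM10 at 0.64 ± 0.11 and GIC2, an effector of Cdc42, at 0.51 ± 0.08. Without REF replicate 1 only 3 of the 6 passed, with AFR1 (adjusted p = 0.0533), MSG5 (0.177) and SCW10 (0.0728) lost. PRM5 had levels of 10.78 and 11.04 on the arrays labelled PGM2 and of 10.16 and 10.31 on those labelled SO16, against 8.47 and 8.56 on REF. PRM5 is also known as a target of the cell wall integrity pathway. KSS1, the other mitogen-activated protein kinase of the cascade, rose by 0.85 ± 0.11 on the arrays labelled PGM2 and by 0.67 ± 0.11 on those labelled SO16, and it was the 1 of 10 scaffold, kinase and polarity genes to pass there. Of 11 negative regulators, 2 fell and none rose on the arrays labelled E62A, where 6.97% of all genes fell. They were GPA1, given above, and BAR1, the protease that degrades alpha-factor (-1.05 ± 0.08, adjusted p = 6.13e-06). In the same list BAR1 (0.72 ± 0.08) and PTP2 (0.49 ± 0.07) rose on the arrays labelled PGM2. On those labelled SO16 MSG5, a phosphatase of Fus3 (0.41 ± 0.09), and PTP2 (0.36 ± 0.07) rose. Without REF replicate 1 neither passed (PTP2 at 0.0756), nor did MSG5 without SO16 replicate 2 (0.0671).

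**Figure D4:**
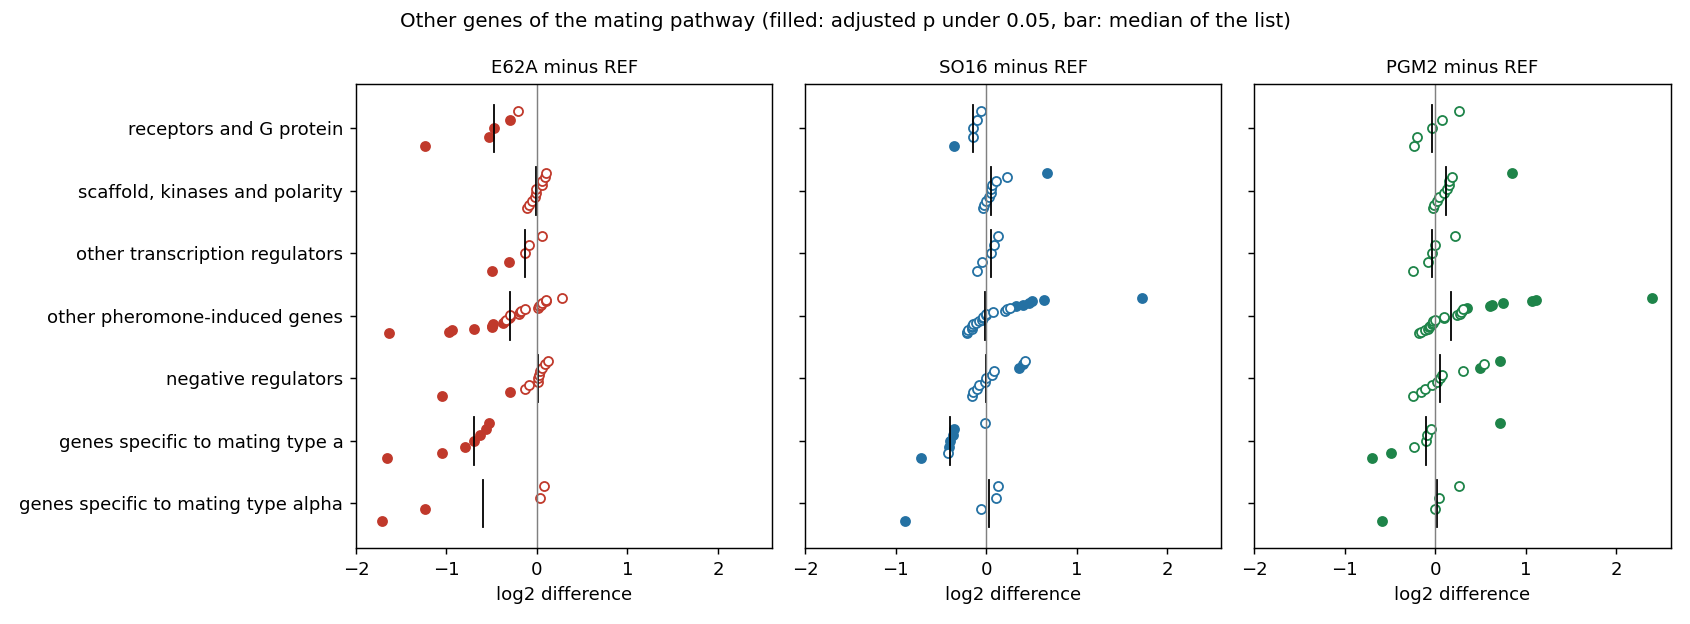
Difference from REF (x axis, log2) of the other pathway genes in 7 lists (y axis) for the labels E62A, SO16 and PGM2; each point is a gene, filled where its adjusted p was under 0.05, and the bar is the median of the list. On E62A the median of the genes specific to mating type a is -0.70 and that of the scaffold, kinase and polarity genes -0.01.

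Markers of mating type were read as a check of the strain and because they moved with these genes. In the order E62A, E62C, SO16 and PGM2, 6.97%, 4.96%, 5.1% and 6.53% of all genes fell. Of the 7 genes specific to mating type a, all 7 fell on the arrays labelled E62A, 4 on E62C, 5 on SO16 and 2 on PGM2, where BAR1 rose. The count for SO16 was 2 without REF replicate 1 or 2 and 3 without SO16 replicate 1 or 2. For E62C it was 2 without REF replicate 1, and for PGM2 1 without either array of E62A, E62B, PGM2 or REF. Their summed level, on the log2 scale, was 13.35 to 13.36 on the arrays labelled E62A, 14.27 to 14.34 on E62B, 13.73 to 13.96 on E62C, 13.74 to 13.81 on SO16, and 13.87 to 14.04 on PGM2, against 14.15 to 14.22 on REF. Some of these calls rested on single arrays. For E62A, STE6 was lost without REF replicate 1 (adjusted p = 0.18) and without either E62A array (0.0576 and 0.172), and ASG7 without E62A replicate 2 (0.0557). MFA1 ended without REF replicate 1 on E62C (0.0798), SO16 (0.0745) and PGM2 (0.207), and without E62C replicate 2 (0.0533). ASG7 was lost without REF replicate 1 on E62C (0.0728) and SO16 (0.268). On SO16 STE2 was lost without REF replicate 1 (0.123) or 2 (0.0891), and AGA2 (0.056) and ASG7 (0.115) without REF replicate 2. MFA1, which encodes a-factor, had levels of 10.10 and 10.18 on the arrays labelled E62A, against 11.85 and 11.74 on REF. The 4 genes specific to mating type alpha summed to 9.12 to 9.23 on the arrays labelled E62A, 9.94 to 10.04 on E62B, 9.61 to 9.70 on E62C, 9.52 to 9.77 on SO16, and 9.75 to 9.80 on PGM2, against 9.79 to 9.98 on REF. Of these 4, MF(ALPHA)1 (-1.71 ± 0.14) and STE3 fell on the arrays labelled E62A. SAG1, with means of 8.22 there and 8.18 on REF, did not (0.04 ± 0.07, adjusted p = 0.82). MF(ALPHA)2 stayed between 6.20 and 6.38 on all 12 arrays, near the background of 6.002. MF(ALPHA)1 fell as well with the labels SO16 (-0.90 ± 0.14, adjusted p = 0.00212), E62C (-0.67 ± 0.14, 0.0128) and PGM2 (-0.58 ± 0.14, 0.0202). Its E62C call ended without REF replicate 2 (-0.51) or E62C replicate 2 (-0.51). Its PGM2 call ended without REF replicate 2 (-0.43) or either PGM2 array (-0.57 and -0.60). No marker of either type was below background. The part of cell type in the differences of the 10 genes was not tested.

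The genes whose pattern was most like that of the 10 were found by Pearson r, over the 12 arrays, with the mean of the 10 after each was centred on its own mean. Among 850 other genes whose group means spanned at least 0.5, FUS2 came first with r = 0.98. It was followed by EPL1, a subunit of the NuA4 histone acetyltransferase (0.97), YGL262W (0.97), ERR3, an enolase-related gene (0.96), COS12 (0.95) and YGR109W-A (0.94). The probe sets of ERR3 and YGR109W-A are shared with near-identical genes by their names. EPL1 had levels of 8.69 and 8.73 on the arrays labelled E62A, 9.37 and 9.39 on E62B, 9.15 and 9.21 on E62C, 9.21 and 9.26 on SO16, and 9.39 and 9.51 on PGM2, against 9.40 and 9.36 on REF. All 6 genes fell on the arrays labelled E62A, from -0.67 ± 0.06 for EPL1 to -1.08 ± 0.13 for YGR109W-A. The mean used to pick them was -0.74 and -0.71 there, against -0.21 to 0.33 on the other arrays. These falls therefore follow from the choice and are no separate result. Over the 10 arrays without E62A their r ranged from 0.74 for COS12 to 0.90 for FUS2.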

How the data were processed

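The authors deposited 1 table of log2 expression values, 10928 probe sets on 12 arrays. Hybridisation followed the Affymetrix manual, per the labels' protocols. RMA and affy are named, without versions, by the submitters' processing notes; no further step is known here. RMA equalises the arrays, so a shift of all transcripts would be removed, and it compresses differences near background. Arrays carry no read depth, so their number limits the precision.

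Probe sets were named through the platform's table, in which 7244 probe sets had 1 symbol, 1 had several and 3683 had none. Of the named ones, 5498 matched a budding yeast gene, and the highest-mean probe set per gene left 5449 genes. Background was the 95th percentile of the means of 1746 fission yeast probe sets.

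Groups came from the sample titles. One mean per group was fitted over 12 arrays in limma 3.58.1 (lmFit, contrasts.fit, eBayes; R 4.3.3), with 6 residual and 4.97 prior degrees of freedom, for 5 comparisons with REF, 10 between modified groups, and an F test. P-values were computed here and adjusted within each comparison. The fit was tested on simulated data. Named genes are the 10, up to 3 called genes per list and comparison (not all printed), the 6 most like in pattern, and 4 label checks. The members and lists were chosen with earlier results of these data known. The 24 alternatives cover normalization, filters, variance models, array weights, a replicate block, the arrays fitted and the threshold. Figures were drawn with matplotlib 3.10.9.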

Additional observations from a re-analysis of the deposited data

How the results depend on the processing

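No call of the 10 genes changed sign in any of 24 alternatives. Over 1200 combinations of gene, label and alternative against REF, 1148 kept their side of the threshold, 28 calls were lost and 24 gained. All 10 genes were lowest on the arrays labelled E62A in every alternative with group means from all 6 groups. Of the 10, the count higher on the arrays labelled SO16 was 1 with array weights, with only the arrays of the 2 groups compared, or at an adjusted p under 0.01, against 2. Without SO16 replicate 2 and E62C replicate 2 together, 5 were lower on SO16, against 3, and 5 higher on PGM2, against 3. Leaving out 1 array at a time, the count changed was 6 to 10 on E62A, 4 to 6 on E62C, 3 to 5 on SO16 (0 to 2 of them higher) and 4 to 6 on PGM2.

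Over all 5449 genes the counts changed against REF were 683 for E62A, 0 for E62B, 534 for E62C, 479 for SO16 and 739 for PGM2. Array weights gave 1224 for E62A, 2 for E62B and 253 for SO16. Fitting only the arrays compared gave 1113 for E62A, 4 for E62B, 316 for E62C and 271 for SO16. Without SO16 replicate 2 and E62C replicate 2 the counts were 1246 for E62A, 3 for E62B, 897 for SO16 and 1211 for PGM2. At an adjusted p under 0.01 they were 352 for E62A, 265 for E62C, 261 for SO16 and 379 for PGM2. Leaving out 1 array gave 302 to 872 for E62A, 0 for E62B, 250 to 729 for E62C, 228 to 536 for SO16 and 358 to 911 for PGM2. The causes were not tested.

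The titles number the arrays 1 and 2 in each group. Deviations of equal numbers correlated over genes from -0.35 to 0.54 in the 15 pairs of groups, above 0.1 in 6 and below -0.1 in 6, so that equal numbers do not pair the arrays across all groups. The 6 above 0.1 were the 3 pairs among E62A, E62C and SO16 and the 3 among E62B, PGM2 and REF, so that batches within each set, which the labels do not name, were not tested. With the replicate block the counts of the 10 genes against REF were 9, 0, 5, 5 and 5 for E62A, E62B, E62C, SO16 and PGM2, as without it, and 69 calls were made between modified groups, against 65. The block is a single term shared by all groups, so these counts cannot show what batches within each set would do. The planned count of Ste12 motifs in promoters was not run, since no promoter sequence was used here.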

Other observations

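Genes next to the mating pathway were read from further lists. On the arrays labelled PGM2 7.03% of all genes rose. In the filamentous growth branch, which shares Ste11, Ste7 and Kss1 with mating, 4 of 7 genes rose on the arrays labelled PGM2 and none fell. MSB2, a signalling mucin, lay at 11.57 and 11.47 there and at 11.25 and 11.27 on the arrays labelled SO16, against 10.69 and 10.74 on REF. It rose by 0.81 ± 0.07 (adjusted p = 1.95e-05) and 0.54 ± 0.07 (5.35e-04). PGU1, an endopolygalacturonase, rose on the arrays labelled PGM2 by 0.61 ± 0.07, lying at 6.87 and 6.88 there, against 6.25 and 6.28 on REF. FLO11, a flocculin, fell by 0.37 ± 0.08 on the arrays labelled SO16 and by 0.35 ± 0.08 on those labelled E62C. The FLO11 calls ended without either REF array (adjusted p of 0.0803 to 0.0967), SO16 replicate 1 (0.0656) or E62C replicate 1 (0.0647).

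Of 11 G1 cell cycle genes none passed on the arrays labelled E62A or SO16. On the arrays labelled E62C 4.96% of all genes fell. Among them were CLN1 (-0.55 ± 0.13), PCL1 (-0.39 ± 0.10) and CLN3 (-0.38 ± 0.10), all 3 of them cyclins of the G1 phase. Each call ended without E62C replicate 2 (adjusted p = 0.0906, 0.128 and 0.202) or REF replicate 2 (0.13, 0.135 and 0.147). PCL1 and CLN3 also ended without REF replicate 1 (0.0717 and 0.129), and CLN3 without any one E62A (0.0561) or E62B array (0.0608). Of 5 diploid and meiosis markers, 1 fell and none rose on the arrays labelled E62A (median 0.02), where 6.97% of all genes fell. That was IME1, the inducer of meiosis, at -0.46 ± 0.07 (adjusted p = 0.00133). On the arrays labelled PGM2 1 rose, IME2, by 0.30 (adjusted p = 0.0351), a call that ended in 8 of the 24 alternatives. These counts are not read as a result about the list. Among 9 haploid-specific genes, 2 fell and none rose on the PGM2-labelled arrays (median -0.03), where 6.53% of all genes fell. On the arrays labelled E62A 2 fell and 1 rose, where 6.97% of all genes fell and 303 of 5449 rose. The 2 that fell, STE4 and GPA1, are also in the receptor and G protein list. On those labelled E62C 2 fell, HO by 0.44 ± 0.11 and RME1 by 0.44 ± 0.08, where 4.96% of all genes fell. The HO call there ended in 9 of the 24 alternatives. HO fell most, with levels of 10.03 and 10.35 on the PGM2-labelled arrays, against 10.97 and 11.22 on REF. That was a fall of 0.91 ± 0.11 (adjusted p = 2.59e-04). RME1, the other gene to fall there, did so by 0.34, and its call ended in 4 of the 24 alternatives.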
